A study of Mus musculus with 2 samples.

Results

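The subunits of the oxidative phosphorylation complexes were examined in islet cells of virgin and multiparous mice. Members were taken by gene symbol: mitochondrially encoded genes beginning mt-Nd, mt-Cytb, mt-Co or mt-Atp, and nuclear genes of the Nduf (a, b, c, s or v with a digit, and Ndufab1), Uqcr, Cox4 to Cox8 and Atp5 families. This gave 94 of the 31053 genes in the matrices, of which 81 were nuclear (38 of complex I, 8 of complex III, 18 of complex IV and 17 of complex V) and 13 mitochondrial (7, 1, 3 and 2). The islets came from wild-type female C57BL/6J mice that entered the study at 9 weeks of age. Multipara mice had gone through 3 consecutive pregnancies and were taken 3 weeks after the last delivery, and virgin mice were their unmated littermates. Islets of both groups were kept briefly in serum medium and dispersed with trypsin, and polyadenylated RNA was counted with the 10x 3′ chemistry, where every captured molecule is tagged once with an identifier (UMI) and counted once. Each group had a single library (1 per group), and the labels do not say how many mice each held, so values of the 2 libraries are set side by side without a test of parity.

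Oxidative phosphorylation takes place in the inner mitochondrial membrane. Complex I (NADH dehydrogenase), complex III (cytochrome bc1) and complex IV (cytochrome c oxidase) pass electrons to oxygen and pump protons, and complex V (ATP synthase) uses the proton gradient to make ATP. Some subunits of these complexes are made inside the mitochondrion, while most come from nuclear genes and are imported. In beta cells, ATP from this pathway closes potassium channels when glucose rises and so couples glucose to insulin release.

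The virgin library held 94853806 UMIs and the multipara library 82503776. Cells were assigned to types by hormone and marker genes after the cell filter of the study, which keeps cells with under 10% of UMIs from mitochondrial genes, a filter that reads the 13 mitochondrial members themselves. That limit alone removed 11.0% of virgin and 24.3% of multipara cells that passed the other limits. The gates gave 1775 virgin and 1505 multipara beta cells, 1021 and 646 alpha cells, 193 and 177 delta cells, 85 and 88 pancreatic polypeptide (PP) cells, 245 and 215 endothelial cells and 58 and 60 pericytes, with 83 and 102 myeloid, 121 and 40 T and 145 and 32 B cells. Genes outside the gates went with the labels, since Mafa stood at 323 and 337 CPM (counts per 1000000 UMIs of the cell type) in virgin and multipara beta cells and at 4.72 and 8.12 CPM in alpha cells, and Irx2 at 104 and 93.3 CPM in alpha cells and at 1.75 and 1.11 CPM in beta cells. The libraries shared 7 barcodes, of which 2 were gated in both. In beta cells, 87 of the 94 members had at least 50 UMIs in both libraries together, 6 had 1 to 49 and Cox8c had none. In alpha cells 86 members and in delta cells 84 reached 50 UMIs.

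Cox6a2, the subunit 6a isoform of cytochrome c oxidase known from heart and skeletal muscle, was the member that most set beta cells apart. Its coding sequence is shown beside that of Cox6a1, the isoform of most other tissues, because 3′ counting can separate the pair only if they differ. The last 240 coding bases of Cox6a1-201 (GRCm38, chr5:115345642-115348981, minus strand) and of Cox6a2-201 (chr7:128205435-128206387, minus strand) are printed 5′ to 3′ from GENCODE M21, with capitals for bases that differ from the other gene, or have no partner in it, when the 2 are aligned. Over the aligned coding bases, 69.0% were identical, and the longest identical run without a gap was 12 bases. Gaps are not printed, and each gene is cut to its own last 240 coding bases. A lower-case stretch can therefore span a gap or pair with bases that are not shown.
Cox6a1: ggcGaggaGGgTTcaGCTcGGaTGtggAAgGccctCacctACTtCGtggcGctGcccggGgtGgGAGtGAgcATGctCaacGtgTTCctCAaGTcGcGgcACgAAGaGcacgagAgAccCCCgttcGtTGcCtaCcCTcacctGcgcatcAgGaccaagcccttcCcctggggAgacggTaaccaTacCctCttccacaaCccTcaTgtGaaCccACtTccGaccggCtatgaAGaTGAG
Cox6a2: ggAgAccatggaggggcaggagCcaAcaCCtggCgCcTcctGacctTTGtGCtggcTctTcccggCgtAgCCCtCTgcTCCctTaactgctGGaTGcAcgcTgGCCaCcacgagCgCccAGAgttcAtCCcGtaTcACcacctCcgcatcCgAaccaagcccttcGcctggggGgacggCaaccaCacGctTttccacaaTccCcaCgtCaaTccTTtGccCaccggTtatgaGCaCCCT

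Cox6a2 gave 6493 UMIs in virgin and 5067 in multipara beta cells, or 125 and 108 CPM. It made up 57.7% of Cox6a UMIs in virgin beta cells (exact 95% interval 56.7 to 58.6) and 52.0% in multipara beta cells. In the other 8 types the share ran from 0 to 5.88%, far below both beta cell values. Alpha cells had 39 and 57 Cox6a2 UMIs (2.36 and 5.09 CPM) and delta cells 5 and 15. The alpha level was 1.89% and 4.71% of the beta level, beside 1.46% and 2.41% for Mafa, 2.52% and 3.07% for G6pc2 and 0.93% and 1.56% for Ins2, genes of beta cells whose UMIs in alpha cells can come from free RNA in the droplets. The beta-to-alpha difference was 5.51 on the log2 scale (SE 0.20, adjusted p = 1.76e-08, edgeR quasi-likelihood test), 6.17 within the virgin and 4.86 within the multipara library. Cox6a1, in contrast, stood at 91.8 and 99.7 CPM in beta cells and 133 and 146 CPM in alpha cells and was not called (-0.09, adjusted p = 0.22).

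**Figure D1:**
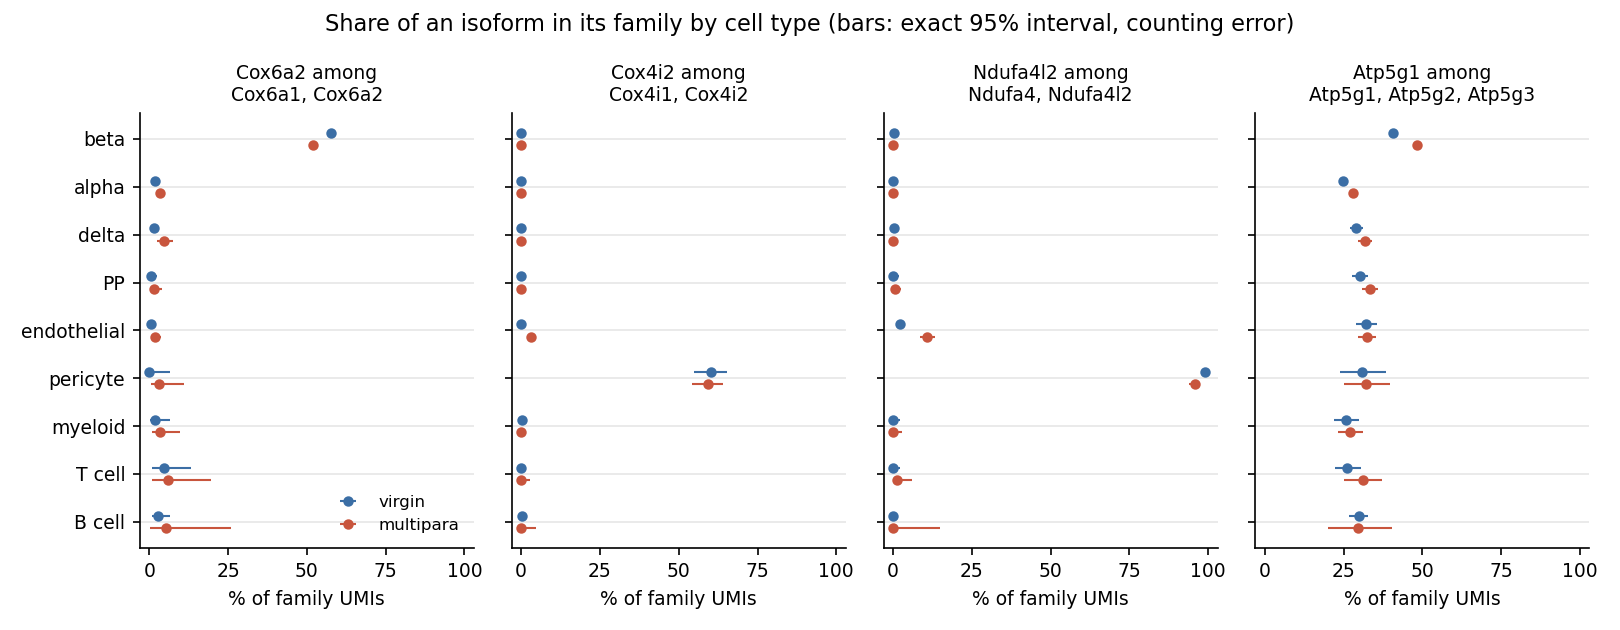
Share of one isoform among the UMIs of its family (x axis, percent) in 9 gated cell types (y axis) in the virgin (blue) and multipara (red) libraries, with exact 95% intervals that cover counting error only. Cox6a2 stands at 57.7% and 52.0% in beta cells, Cox4i2 and Ndufa4l2 are the major isoforms in pericytes, and Atp5g1 takes a larger share in beta cells (40.6% and 48.4%) than elsewhere.

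Pericytes, the contractile cells that wrap capillaries, used another pair of isoforms. Ndufa4l2, a paralogue of Ndufa4 known to be induced by low oxygen, is shown with Ndufa4 because it outnumbered Ndufa4 in these cells. Ndufa4 carries a complex I name but its protein is known as a component of cytochrome c oxidase. The whole coding sequences of Ndufa4-204 (chr6:11900376-11907497, minus strand) and Ndufa4l2-201 (chr10:127514967-127517154, plus strand) follow on the same build, with capitals of the same meaning. Over the aligned bases, 69.5% were identical, and the longest shared run was 28 bases.
Ndufa4: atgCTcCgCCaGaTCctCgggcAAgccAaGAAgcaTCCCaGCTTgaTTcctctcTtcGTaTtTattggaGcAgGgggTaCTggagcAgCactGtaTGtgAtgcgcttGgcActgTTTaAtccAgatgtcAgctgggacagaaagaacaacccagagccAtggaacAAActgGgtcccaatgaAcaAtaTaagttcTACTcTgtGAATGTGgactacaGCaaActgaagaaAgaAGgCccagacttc
Ndufa4l2: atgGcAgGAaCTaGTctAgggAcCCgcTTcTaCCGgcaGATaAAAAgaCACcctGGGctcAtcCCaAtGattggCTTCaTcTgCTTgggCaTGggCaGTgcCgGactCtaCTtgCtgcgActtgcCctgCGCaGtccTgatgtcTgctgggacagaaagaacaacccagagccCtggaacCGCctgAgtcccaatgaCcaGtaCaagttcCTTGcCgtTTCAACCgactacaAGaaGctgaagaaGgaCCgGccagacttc

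Ndufa4l2 gave 558 UMIs in virgin and 553 in multipara pericytes (2759 and 2631 CPM), against 6 and 24 UMIs of Ndufa4, so that it made up 98.9% and 95.8% of the pair. In beta cells, with far more UMIs in all, it gave 14 and 8 UMIs (0.27 and 0.17 CPM). Cox4i2, the isoform of subunit 4 known from lung and from oxygen-sensing cells, had 211 and 233 UMIs in pericytes (1043 and 1109 CPM) and made up 60.1% and 59.3% of Cox4i UMIs there, against 0.02% and 0.01% in beta cells. Both pericyte values were far above those of every other type. Endothelial cells had 13 and 70 Ndufa4l2 UMIs and 0 and 27 Cox4i2 UMIs in the virgin and multipara libraries. Some markers of pericytes rose as well in the summed UMIs of endothelial cells: Rgs5 went from 97 to 532 UMIs, Higd1b from 3 to 20 and Pdgfrb from 1 to 21. Gm13889, another marker of pericytes, fell from 469 to 372. Their part in the endothelial values was not tested. With 58 and 60 cells, the pericyte values are given as levels, without a test.

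The other isoforms known from muscle or testis were low or absent. Cox7a1, of heart and muscle, had 55 and 40 UMIs in beta cells (1.06 and 0.85 CPM) and 5 and 3 in alpha cells (0.30 and 0.27 CPM). The difference was called (2.18, SE 0.49, adjusted p = 3.83e-03) at a level near 1 CPM. In delta cells it had 6 and 4 UMIs, which on the CPM scale lay above both other types. Cox6b2, of testis, had 5 and 4 UMIs in beta, 16 and 13 in alpha and 6 and 7 in delta cells, and was called lower in beta than in alpha cells (-3.04, SE 0.58) and than in delta cells (-4.13, SE 0.63). Cox7b2 had 5 and 5 UMIs in beta, 7 and 5 in alpha and 2 and 3 in delta cells. It was called in beta against delta cells (-2.62, SE 0.83, adjusted p = 0.021), on those few UMIs. Cox8b had at most 2 UMIs in any type and library, and Cox8c had 0 in all, which in virgin beta cells allows up to 0.058 CPM (3 counts).

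Atp5g1, Atp5g2 and Atp5g3 encode the same mature c subunit of the ATP synthase ring with different import sequences. Atp5g1 made up 40.6% of the 3 in virgin and 48.4% in multipara beta cells, while in the other 8 types it ranged from 24.8% to 33.3%. Atp5g2 fell short of it in multipara beta cells (34.7%) and led in every other type in both libraries, with 56.9% and 54.1% in alpha and 51.8% and 49.4% in delta cells. In virgin beta cells the shares of Atp5g1 and Atp5g2 were level, at 40.6% and 40.7%. Cox7a2l, a paralogue of Cox7a2, made up 65.6% and 63.9% of Cox7a UMIs in beta cells and 52.8% and 47.4% in alpha cells. The immune types reached 57.8% to 71.0%, so this share was not particular to beta cells.

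Mitochondrial and nuclear subunits differed in their balance between cell types. In beta cells the 13 mitochondrial members summed to 44735 CPM (virgin) and 42669 CPM (multipara), and the 81 nuclear members to 9405 and 9662 CPM. Alpha cells had 43368 and 40733 CPM of mitochondrial and 13292 and 13594 CPM of nuclear subunits, and delta cells 39348 and 37581 CPM and 16352 and 16262 CPM. Hormone transcripts took 61.7% and 62.9% of beta cell UMIs, which lowers the CPM of every other gene there. The ratio of mitochondrial to nuclear UMIs does not depend on that scaling. In kept cells it was 4.76 and 4.42 in beta and 3.26 and 3.00 in alpha cells. PP cells had 3.22 and 3.23 and delta cells 2.41 and 2.31. Endothelial cells (2.39 and 2.69) lay close to delta cells and pericytes (2.12 and 2.0) below them. In pericytes, Ndufa4l2 alone gave 2759 and 2631 CPM of the nuclear sum, and the ratio without it was not computed. Beta cells were the highest in both libraries, though multipara B cells, with 32 cells, came close at 4.36. Both libraries gave the order beta over alpha over delta, and the steps between these types were larger than the differences between the 2 libraries within a type. The limit on mitochondrial share counts hormone UMIs in its total, so the cells that enter the ratio can depend on hormone content. Beta cells over that limit held 292520 mitochondrial and 16354 nuclear member UMIs in the virgin library. In the multipara library they held 482341 and 14161. The ratio with these cells included was not computed, so the order of the 2 libraries is given for kept cells only. Mitochondrial and nuclear transcripts differ in their capture, so the ratio compares cell types and is not a ratio of molecules in the cell.

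Within each library the order of these 3 types held in each complex. Complex IV had the highest ratio, with 9.83 and 9.32 mitochondrial UMIs per nuclear UMI in beta, 7.04 and 6.44 in alpha and 5.32 and 5.13 in delta cells. Complex III followed with 5.35 and 4.83, 3.14 and 2.87, and 2.55 and 2.39. For complex V, alpha cells (1.78 and 1.68) and delta cells (1.70 and 1.66) were nearly level, with their library ranges overlapping, below beta cells (3.03 and 2.91). Complex I had 2.61 and 2.33 in beta, 2.15 and 1.95 in alpha and 1.15 and 1.05 in delta cells, the widest relative gap between alpha and delta cells. Multipara B cells lay above beta cells in complex I (2.73) and complex V (3.08). Within single beta cells, mitochondrial members took a median of 4.15% and 3.74% of UMIs (10th to 90th percentile 2.55% to 7.43% and 2.24% to 7.08%), and nuclear members 0.94% and 0.96%.

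**Figure D2:**
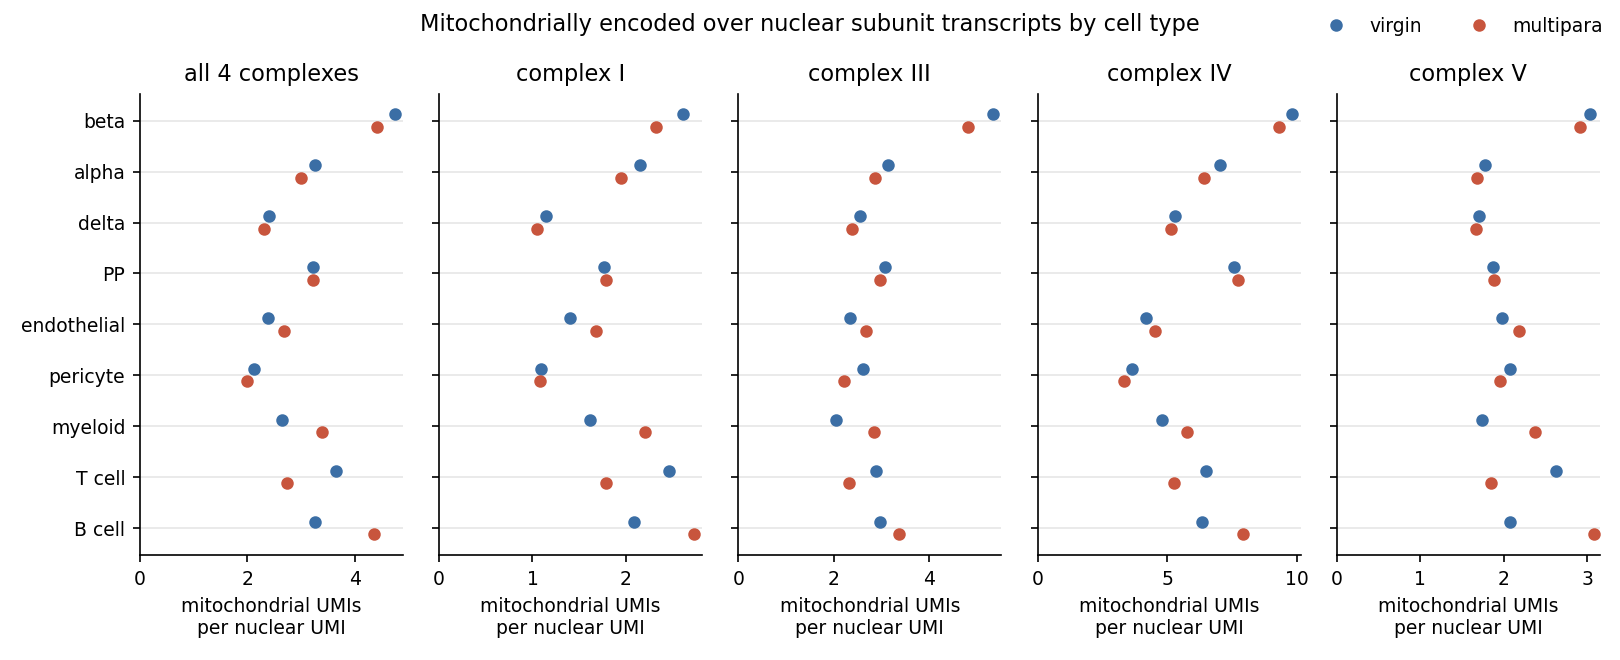
Mitochondrially encoded UMIs per nuclear UMI of the same complex (x axis, a ratio that does not depend on scaling) in 9 cell types (y axis) for all 4 complexes together and for each, virgin in blue and multipara in red. The cells are those kept by the limit on mitochondrial share, which counts hormone UMIs in its total. For all complexes, beta cells stand at 4.76 and 4.42, alpha cells at 3.26 and 3.00 and delta cells at 2.41 and 2.31.

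Among mitochondrial genes in beta cells, mt-Co3 was the highest (9142 and 8622 CPM), followed by mt-Atp6 (8029 and 7787), mt-Co2 (7082 and 6993), mt-Co1 (6295 and 5863) and mt-Cytb (4957 and 4852). Genes of complex I were lower, from 3181 and 2919 CPM for mt-Nd4 over mt-Nd2 (2798 and 2611), mt-Nd1 (2068 and 1969), mt-Nd3 (678 and 601), mt-Nd5 (351 and 322) and mt-Nd4l (111 and 93.3) to mt-Nd6 (11.7 and 9.28). mt-Nd6 is the one of these genes read from the opposite strand, and mt-Nd4l and mt-Atp8 (31.9 and 27.1 CPM) share a transcript with mt-Nd4 and mt-Atp6, whose annotations they overlap by 7 and 43 bases, so their UMIs cannot be assigned to one gene with certainty. Counts near a 3′ end are not scaled by gene length, so this order is one of captured molecules.

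Cell types were then compared gene by gene, with edgeR's quasi-likelihood test on UMIs summed per library and type, TMM scaling, the library as a block and Benjamini-Hochberg adjustment over all genes tested. Of 89 members tested in beta against alpha cells, 31 were called higher and 30 lower at adjusted p under 0.05. Of all genes, 56.8% were called (29.3% higher and 27.5% lower), so the count of members was near that of genes in general. The 2 genomes parted: 12 of 13 mitochondrial members were higher and none lower (median 0.43), while of 76 nuclear members 19 were higher and 30 lower (median -0.08, against 0.01 for all genes). With library sizes that leave out hormone genes, the split was 47 higher and 10 lower (mitochondrial 13 and 0, nuclear 34 and 10), and with plain UMI totals 13 and 64 (4 and 4, 9 and 60). In each of these scalings the mitochondrial median lay above the nuclear one (0.61 and 0.12 without hormone genes, -0.02 and -0.53 with plain totals). A change of scaling shifts all genes of a contrast nearly alike, so this order could hardly change and the scalings do not test it. No direction for the nuclear set as a whole can be given.

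Some members kept their direction in all 3 scalings and in both libraries. In beta against alpha cells these were 12 of the 19 nuclear members called higher, 22 of the 30 called lower and 5 of the 12 mitochondrial ones (mt-Co1, mt-Co2, mt-Atp6, mt-Nd6 and mt-Cytb). Next to Cox6a2 and Cox7a1, large rises were seen in Cox5a, a nuclear subunit of the complex IV core assembly (80.4 and 92.2 CPM in beta, 59.2 and 50.8 CPM in alpha cells), and Atp5g1 (211 and 281, 180 and 205 CPM). Their log2 differences after TMM were 1.09 (SE 0.10) and 0.79 (SE 0.07). For both genes the levels of the types did not overlap. Lower in beta cells were Ndufa6, an accessory subunit of complex I (106 and 98.4 CPM in beta, 275 and 273 CPM in alpha cells, -0.97, SE 0.06), Cox7c (198 and 185, 433 and 415 CPM, -0.70), Atp5e, the epsilon subunit of ATP synthase (279 and 286, 592 and 630 CPM, -0.66), and Uqcrfs1, the Rieske iron-sulphur protein of complex III (59.4 and 55.1, 126 and 120 CPM, -0.66). Among nuclear core subunits of complex I, Ndufs3 (0.41), Ndufv1 (0.31) and Ndufs8 (0.23) were called higher and Ndufs1 lower (-0.32), and Ndufs7 and Ndufv2 were not called. Of these called genes, Ndufs1 kept its direction in every scaling.

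In beta against delta cells, 41 of 89 members were called higher and 7 lower, where 22.0% of all genes were higher and 20.9% lower (42.9% called). Mitochondrial members gave 12 higher and none lower (median 1.21), and nuclear members 29 and 7 of 76 (median 0.15). The mitochondrial rises were led by mt-Nd3 (1.45, SE 0.08), mt-Nd5 (1.44, SE 0.09), mt-Nd1 (1.35, SE 0.08) and mt-Nd4 (1.33, SE 0.08), all of complex I. mt-Nd3 stood at 678 and 601 CPM in beta cells, at 860 and 782 CPM in alpha cells and at 471 and 445 CPM in delta cells. Of the 12 mitochondrial calls 11 kept their direction under every scaling, but of the 29 nuclear rises only Cox6a2 did (5.49, SE 0.22). With plain UMI totals the count turned to 8 higher and 71 lower, and without hormone genes it was 32 and 11. All 7 falls kept their direction, among them Uqcrfs1 (-0.49, SE 0.09), Ndufa6 (-0.47, SE 0.08) and Ndufs1 (-0.41, SE 0.13). Both other scalings lower the ratios in this contrast, so a fall could hardly turn and these scalings do not test the falls. The median of all genes was 0.03 with TMM, -0.04 without hormone genes and -0.94 with plain totals.

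In alpha against delta cells, 44 of 88 members were called higher and 6 lower, where 18.2% and 19.7% of all genes were (37.8% called). The 5 largest rises were those of mt-Nd3 (1.36, SE 0.07), mt-Nd1 (1.18, SE 0.07), the nuclear Atp5e, mt-Nd5 (1.05, SE 0.08) and mt-Nd2 (1.01, SE 0.07). mt-Nd6 went the other way, at 9.51 and 8.92 CPM in alpha against 25.3 and 31.3 CPM in delta cells (-1.08, SE 0.18, adjusted p = 4.44e-08). Its levels did not overlap between these types, and they rest on 53 and 58 UMIs in delta cells. Atp5e was the nuclear member with the largest rise (592 and 630 CPM in alpha, 393 and 430 CPM in delta cells, 1.09, SE 0.07). The 5 nuclear falls were Cox7a1 (-2.57, SE 0.70), Ndufa4 (127 and 124, 259 and 231 CPM, -0.45, SE 0.08), Cox5a (59.2 and 50.8, 108 and 98.1 CPM, -0.39, SE 0.10) Ndufa12 (-0.35, SE 0.09) and Ndufc2 (181 and 192, 330 and 319 CPM, -0.29, SE 0.08). Without hormone genes the nuclear split was 8 higher and 18 lower in place of 32 and 5. With plain UMI totals it was 1 and 57. Only Cox5b and Atp5e of the 32 kept their direction throughout.

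Against endothelial cells, 64 of 88 members were called higher in beta cells and 4 lower, where 35.3% and 29.7% of all genes were (65.0% called). The median was 1.33 for mitochondrial and 0.53 for nuclear members, against 0.19 for all genes, and 7 were higher and 59 lower with plain UMI totals. Rises that kept their direction in every scaling included Cox6a2 (6.37, SE 0.26), mt-Co3 (1.71, SE 0.17), mt-Cytb (1.55, SE 0.17), Ndufv3, an accessory subunit of complex I (122 and 144 CPM in beta, 86.8 and 90.7 CPM in endothelial cells, 1.75, SE 0.12), and Atp5s, known as coupling factor B (2.60, SE 0.45, 302 and 262 UMIs in beta cells). Falls were Ndufa4l2 (-5.54, SE 0.65), Ndufa8 (-0.71, SE 0.12), Cox5a (-0.70, SE 0.10) and Ndufa4 (-0.25, SE 0.10, adjusted p = 0.049). Of these, Ndufa4 did not keep its direction in every scaling. Whether pericyte RNA adds to the endothelial Ndufa4l2 UMIs was not tested.

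**Figure D3:**
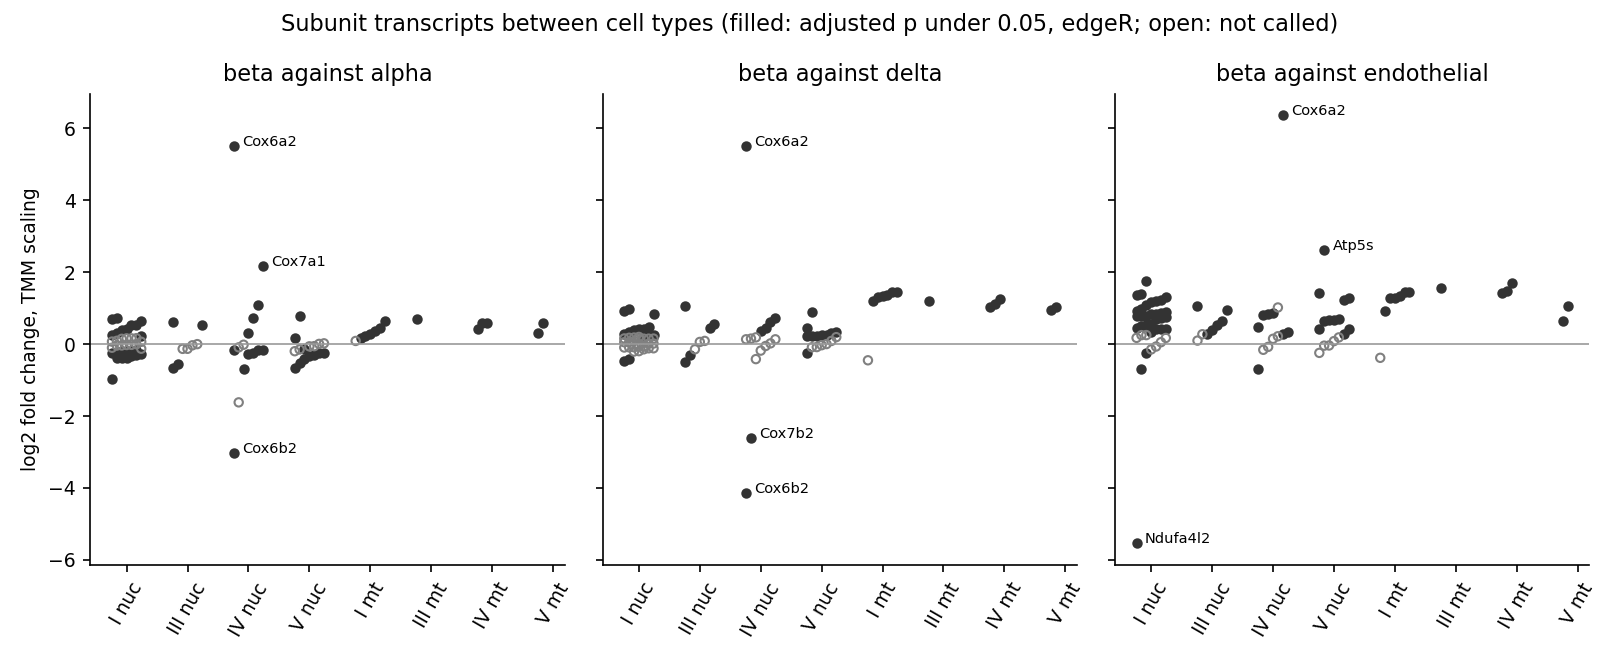
Log2 fold change after TMM scaling (y axis) of each tested member in beta cells against alpha, delta and endothelial cells, by complex and genome (x axis: nuc nuclear, mt mitochondrial). Filled points passed adjusted p under 0.05 (edgeR), open points did not, and members past 2 in size are named. Cox6a2 lies above 5 in all 3 panels, and mitochondrial points lie higher than most nuclear ones.

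Between the 2 libraries, the subunits differed little in beta cells. On the CPM scale the nuclear members summed to a multipara-over-virgin log2 ratio of 0.04 (95% interval 0.03 to 0.04, counting error only) and the mitochondrial ones to -0.068 (-0.071 to -0.065), where the 11845 genes that reached 50 UMIs had a median of -0.09. TMM scaling, which shifts all beta cell ratios by 0.10, gave 0.14 and 0.03, so the mitochondrial sum changed sign. It also changed sign without the limit on mitochondrial share (0.06), beside 0.02 for the nuclear members. By complex, the nuclear sums went from 3528 to 3664 CPM for complex I (0.05), from 926 to 1006 CPM for complex III (0.12), from 2291 to 2305 CPM for complex IV (0.01) and from 2660 to 2688 CPM for complex V (0.01). The mitochondrial sums went from 9199 to 8525 CPM (-0.11), 4957 to 4852 CPM (-0.03), 22518 to 21478 CPM (-0.07) and 8061 to 7814 CPM (-0.04).

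Of the 87 members with at least 50 UMIs in beta cells, 1 was at least 1.3-fold higher in the multipara library and none was 1.3-fold lower, where 4.01% of all genes were higher and 11.2% lower. The 74 nuclear ones had a median of 0.03 and 48 lay above 0. Atp5g1 was the one past the fold, with 10962 UMIs in virgin and 13156 in multipara beta cells (211 and 281 CPM, 0.41, 0.37 to 0.45). Uqcrq, a small subunit of complex III, came next (176 and 228 CPM, 0.37, 0.33 to 0.41), and then Ndufv3 (122 and 144 CPM, 0.24, 0.19 to 0.29). Atp5g1 and Uqcrq were also higher in multipara alpha cells (180 and 205 CPM, 0.19, and 167 and 191 CPM, 0.19), where, next to Cox6a2, the highest ratio was that of Uqcr10 (137 and 165 CPM, 0.26). In delta cells both intervals reached below 0 (0.12, -0.06 to 0.30, and 0.17, -0.04 to 0.38), and in PP, endothelial and pericyte cells both ratios were above 0, with an interval above 0 only for Atp5g1 in PP cells (0.23, 0.03 to 0.43). Among immune cells, both genes were higher in multipara T cells (Atp5g1 0.73, 0.29 to 1.16, and Uqcrq 0.68, 0.13 to 1.22, on 75 and 48 multipara UMIs). In myeloid cells both ratios were below 0 with intervals reaching above it (-0.19 and -0.33), where TMM scaling shifts all ratios by 0.23, and in B cells Atp5g1 was lower (-0.64, -1.29 to -0.05, on 25 multipara UMIs) and Uqcrq was at 0.14 (-0.57 to 0.80).

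The lowest ratios in beta cells were those of mt-Nd6 (11.7 and 9.28 CPM, -0.33, -0.51 to -0.15), Cox7a1 (-0.31 on 55 and 40 UMIs, -0.94 to 0.30), mt-Nd4l (111 and 93.3 CPM, -0.25) and Ndufa9, an accessory subunit of complex I (21.1 and 17.8 CPM, -0.24, -0.37 to -0.11). Cox6a2 was lower by 0.21 on the log2 scale (125 and 108 CPM), while Cox6a1 was higher by 0.12. All 13 mitochondrial members lay below 0 and 5 of them above the median of all genes. Next to Uqcrq for complex III, the nuclear members at the highest level in each complex, Ndufb11 (203 and 203 CPM), Cox8a (394 and 410 CPM) and Atp5l (350 and 323 CPM), and, leaving out Cox7a1 and rarer isoforms, the lowest, Ndufs1 (19.99 and 18.6 CPM), Uqcrc1 (49.7 and 50.5 CPM) and Atp5s (5.82 and 5.59 CPM), had ratios between -0.12 (Atp5l) and 0.06 (Cox8a).

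In alpha cells, 1 of 86 members was at least 1.3-fold higher and none lower (2.93% and 11.0% of all genes). It was Cox6a2 (39 and 57 UMIs), which had risen from 1.89% to 4.71% of the beta cell level. The other beta cell genes given above had risen as well, but by less, and the part of free RNA was not tested. The lowest ratios there were Cox7a2l (293 and 238 CPM, -0.30, -0.37 to -0.23), mt-Atp8 (35.4 and 29.4 CPM, -0.27) and Cox5a (59.2 and 50.8 CPM, -0.22). In delta cells, none of 84 was higher and 1 lower (5.53% and 14.4% of all genes), namely mt-Nd4l (220 and 134 UMIs, 105 and 72.3 CPM, -0.54, -0.86 to -0.22). mt-Nd5 (277 and 214 CPM, -0.37) and Ndufs1 (55.3 and 45.3 CPM, -0.29, -0.71 to 0.13) followed, and the highest were mt-Nd6 (25.3 and 31.3 CPM, 0.31), Ndufs6 (167 and 192 CPM, 0.20), Uqcrq and Ndufv3, each with an interval reaching below 0. The delta gate depends on the hormone ratio it asks for, and it would gain 66 virgin cells at a ratio of 3 and lose 64 at 10.

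**Figure D4:**
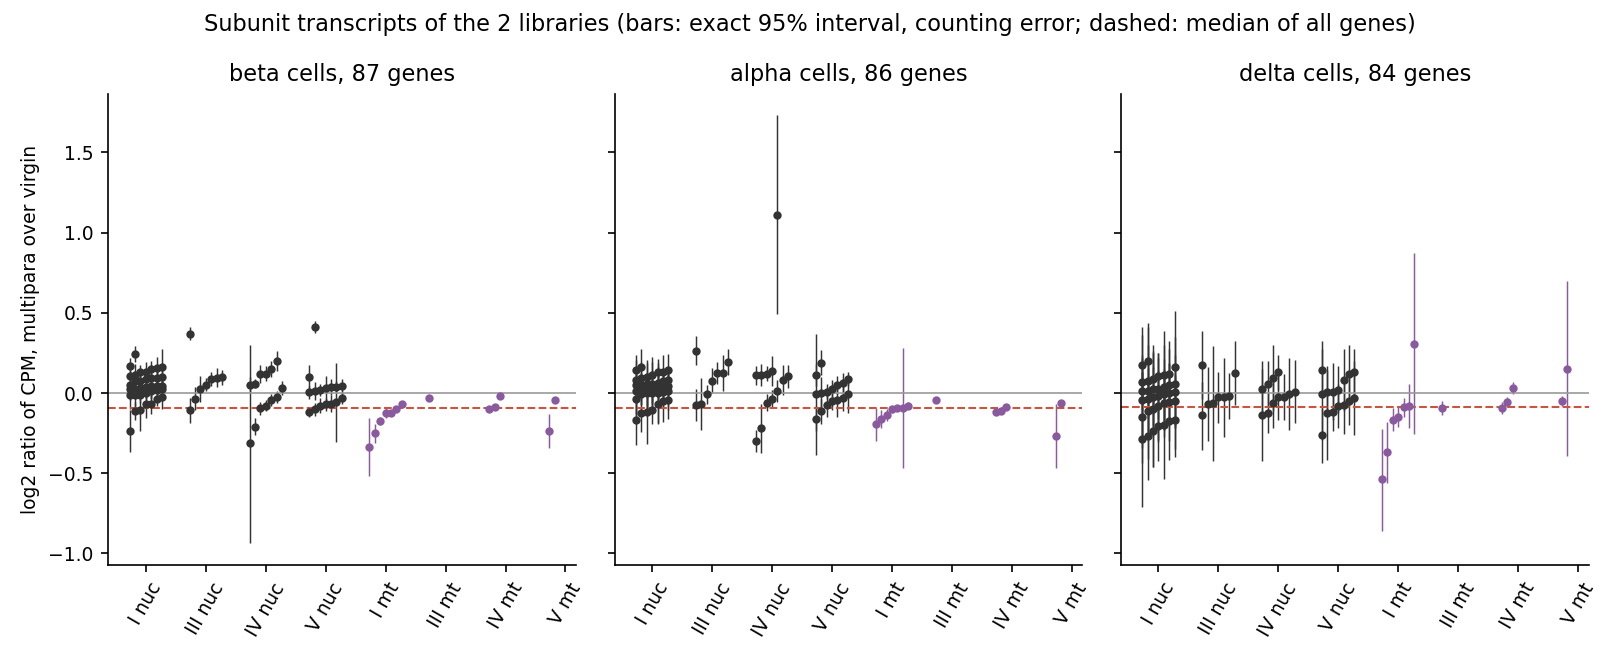
Log2 ratio of CPM, multipara over virgin (y axis), of each member with at least 50 UMIs in beta, alpha and delta cells, by complex and genome (x axis), black nuclear and purple mitochondrial. Bars are exact 95% intervals for counting error, and the dashed line is the median of all genes (-0.09 in beta cells). Atp5g1 (0.41) and Uqcrq (0.37) lie above the rest in beta cells, where all mitochondrial points lie below 0. Cox6a2 in alpha cells (1.11) stands highest.

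Beta cells were also divided by Nupr1, a stress-induced transcriptional regulator that the study counted among its stress genes. Cells were thinned to 5000 UMIs so that depth did not set which of them showed a Nupr1 UMI, and 124 virgin and 109 multipara cells below that were left out. A Nupr1 UMI was found in 350 of 1651 virgin (21.2%) and 646 of 1396 multipara beta cells (46.3%). Without thinning the shares were 36.4% and 65.7% in beta cells (median 30162 and 33014 UMIs per cell), beside 2.45% and 7.59% in alpha cells (16420 and 17476) and 0% and 2.50% in T cells (3389 and 3019). The summed mitochondrial members were higher in cells with Nupr1 in both libraries, at 56437 against 43192 CPM in virgin (0.39, 0.38 to 0.40) and 47967 against 39673 CPM in multipara cells (0.27, 0.26 to 0.28). The nuclear members differed less, at 9970 against 9365 CPM (0.09) and 9939 against 9759 CPM (0.03), and the second of these turned to -0.00487 when hormone genes were left out of the scaling. The median of all genes was 0.01 in both libraries.

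All 13 mitochondrial members lay above 0 in both libraries, and 9 (virgin) and 2 (multipara) were at least 1.3-fold higher (11.6% and 9.65% of all genes). No member was 1.3-fold lower (12.8% and 9.33% of all genes). mt-Nd2 showed the largest difference among the abundant ones in virgin cells (2655 CPM without and 3728 CPM with Nupr1, 0.49, 0.45 to 0.53), with 0.28 in multipara cells. Of 72 and 73 nuclear members with enough UMIs, Cox6a2 was the only one past 1.3-fold in each library, at 103 without and 147 CPM with Nupr1 in virgin (0.52, 0.31 to 0.73) and 80.5 and 122 CPM in multipara cells (0.60, 0.38 to 0.82). Cox6a2 and mt-Nd2 were singled out here after their values were seen. By complex, mitochondrial sums differed by 0.36 to 0.44 in virgin and 0.27 to 0.28 in multipara cells, and nuclear sums by 0.09 to 0.10 and by -0.0033 to 0.05. Without the limit on mitochondrial share the multipara difference of the mitochondrial sum was 0.18.

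**Figure D5:**
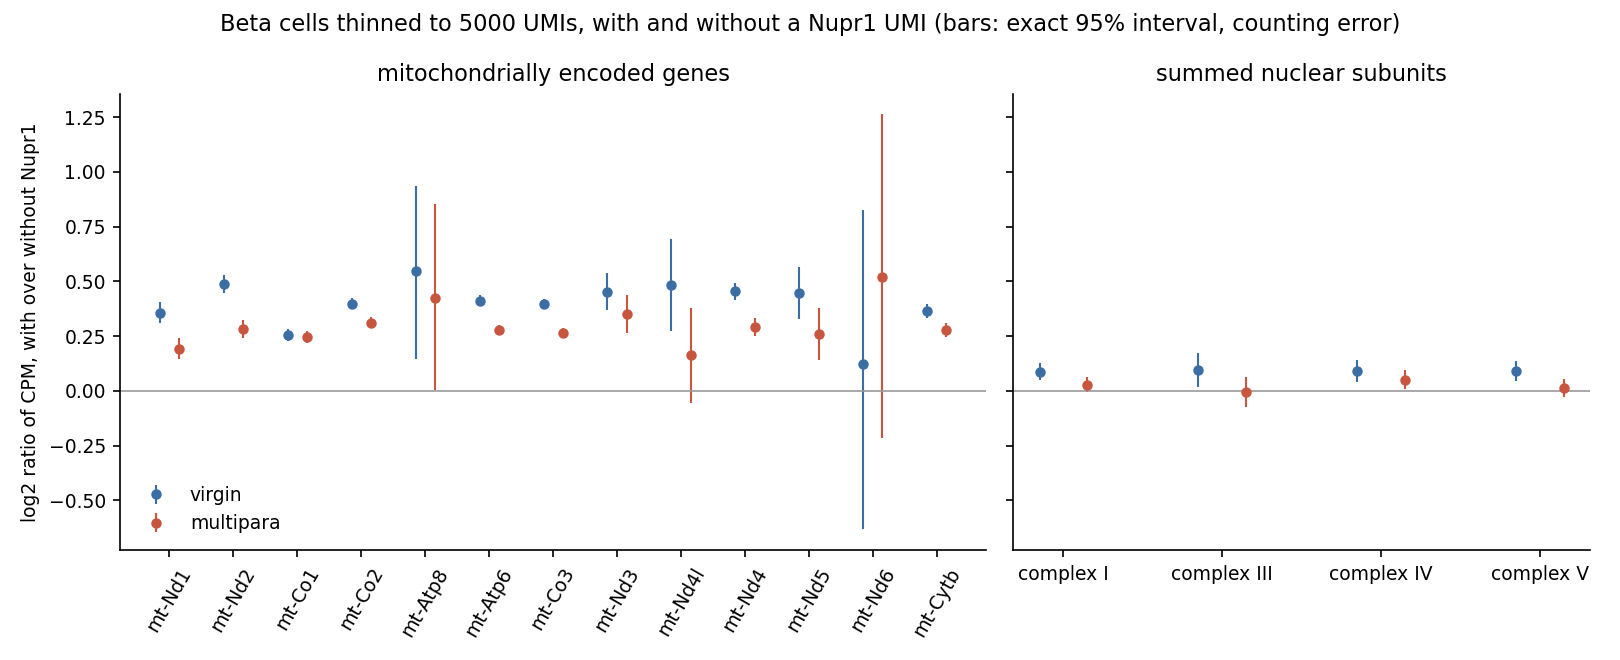
Log2 ratio of CPM in beta cells with over without a Nupr1 UMI after thinning to 5000 UMIs (y axis), for each mitochondrial member (left) and for summed nuclear subunits by complex (right), virgin blue and multipara red. Bars are exact 95% intervals for counting error. All 13 mitochondrial points lie above 0 in both libraries, while nuclear sums lie between -0.0033 and 0.10.

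Other genes of the pathway were counted from lists. In multipara over virgin beta cells, none of the 4 genes of complex II, the succinate dehydrogenase that feeds electrons beside complex I, was past 1.3-fold (median -0.02), nor was any of 41 complex assembly factors (median -0.00423) or of 7 genes of ATP synthase control and nucleotide exchange (-0.04). Of 7 electron carrier genes and 14 genes of mitochondrial gene expression and biogenesis, 1 each was 1.3-fold lower, near the share of all genes (11.2%). Ucp2, the uncoupling protein of islets, went from 91.3 to 73.1 CPM (-0.32, -0.38 to -0.26), from 199.99 to 186 CPM in alpha and from 360 to 327 CPM in delta cells. Between cell types the lists were counted under TMM scaling only, and their directions under other scalings were not tested. Of 4 complex II genes, 3 were called higher in beta than in alpha and in delta cells. Assembly factors gave 16 higher and 3 lower of 41 against alpha cells, where 29.3% of all genes were higher and 27.5% lower. Against delta cells they gave 8 and 3 of 41, and the 8 are near the share of all genes called higher (22.0%, with 20.9% lower). ATP synthase control genes gave 1 and 5 of 7 against alpha cells. Ucp2 was lower in beta than in alpha (-0.79, SE 0.07) and delta cells (-1.09, SE 0.08).

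Promoter sequence was searched for letters bound by regulators known to act on nuclear subunit genes. RefSeq promoters (GRCm38.p6, 250 bases before to 50 after the start) were matched for 64 of 80 nuclear symbols. A gene counted if any of its promoters held the letters. On either strand, CCGGAAG, the core bound by ETS factors such as GABPA, was present in 14 of 64 (21.9%, exact 95% interval 12.5 to 34.0) and in 9.93% of all 27025 gene symbols. The NRF1 core GCATGCGC was present in 9 (14.1%, against 3.05%), the YY1 letters AAGATGGC in 9 (14.1%, against 3.19%) and the ESRRA letters AAGGTCA in 7 (10.9%, against 5.38%). Uqcr11, Cox6a1, Atp5k and Atp5l held both the ETS and the NRF1 letters. These are matches of letters in a window and not measured binding. The 27025 symbols were not limited to genes expressed in these cells, so the differences need not be particular to the subunit genes.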

How the data were processed

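Islet cells of virgin and multipara mice were profiled with the 10x Chromium 3′ v3.1 chemistry, with 1 library per group. The deposited values are raw UMI counts per gene and cell, made by the authors with Cell Ranger (3.1.0) against GRCm38/mm10, and the submitters' processing notes also name Seurat 3.0. Whether intronic reads were counted was not given in the sources used here.

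Cells with 200 to 6000 genes, at most 60000 UMIs and a mitochondrial share below 10% were kept, as in the study, and Scrublet doublets were removed (1.80% of virgin and 0.53% of multipara cells). The mitochondrial members enter that limit. A cell was gated to a type at 1000 or more UMIs when its hormone or marker genes exceeded those of other types 5-fold. Fibroblasts (55 and 5 cells) were not described. UMIs were summed per library and type and scaled to counts per 1000000 (CPM). Virgin and multipara values are given as log2 CPM ratios with exact conditional binomial 95% intervals that cover counting error only, and genes at least 1.3-fold apart with 50 or more UMIs were counted. No test between groups was possible. Cell types were compared with edgeR 4.0.16 (quasi-likelihood, TMM, library as a block, 1 residual degree of freedom, adjusted p by Benjamini-Hochberg over all genes). The 2 libraries come from different mice and also differ in parity. The block takes out the difference between libraries. The p-values rest on how far the difference between cell types varies from one library to the other, with that spread moderated across genes. Named were the mitochondrial members, the tissue isoform families, the highest and lowest nuclear member of each complex in beta cells (50 or more UMIs), the 3 highest and 3 lowest library ratios per endocrine type (200 or more UMIs) and the 5 largest called differences in each direction between cell types with the same direction in both libraries. Any other gene was named after its values were seen, and 1 gene that the rule names is not reported here. Members and lists were chosen with earlier results of these data known. All steps across genes were tested on simulated data. Python 3.11.15, scanpy 1.11.5, R 4.3.3 and DESeq2 1.42.0 (as an alternative) were used.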

Additional observations from a re-analysis of the deposited data

Results flagged for a closer look

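Summed subunits moved in opposite directions in different cell types between the 2 libraries, and these differences between types were not tested. The nuclear members were higher in multipara T cells (log2 ratio 0.32, 0.28 after TMM scaling, from 121 and 40 cells) and lower in multipara myeloid cells (-0.31, -0.08 after TMM scaling, from 83 and 102 cells). The mitochondrial members were higher in multipara B cells (0.17, 0.21 after TMM scaling, from 145 and 32 cells) and lower in multipara T cells (-0.0921, -0.14 after TMM scaling).

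Beta cells removed by the limit on mitochondrial share lie outside the comparisons. They made up 17.4% of multipara beta cells (316 of 1821, 15.6 to 19.2) and 7.31% of virgin beta cells (140 of 1915, 6.18 to 8.57). With mitochondrial UMIs left out of the total, their nuclear members summed to 10260 CPM against 9846 CPM in kept cells in the virgin library, and to 9112 CPM against 10092 CPM in the multipara library. These totals still hold hormone UMIs, so they depend on the hormone share of each set of cells. The removed cells held 8669 (virgin) and 6954 CPM (multipara) of all UMIs, and 16765 and 11702 CPM without hormone genes. Hormone-free sums of kept cells were not set beside these, so no direction is drawn.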

How the results depend on the processing

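Of 84 alternatives, 58 kept a value within its counting interval, or a total count of calls within 1.5 times, 22 moved it further and 4 reversed a ratio, and the cause was not tested. These totals do not cover the split of the calls between cell types. With plain UMI totals it turned from 31 higher and 30 lower to 13 and 64 (beta against alpha), from 41 and 7 to 8 and 71 (beta against delta), from 44 and 6 to 8 and 58 (alpha against delta) and from 64 and 4 to 7 and 59 (beta against endothelial), and without hormone genes it was 47 and 10, 32 and 11, 20 and 19, and 74 and 3. The multipara-over-virgin log2 ratio of nuclear members in beta cells (0.04) was 0.024 without the limit on mitochondrial share, 0.0285 with classes from clusters, 0.0871 without hormone genes, 0.14 with TMM, 0.141 with median-of-ratios scaling and 0.0014 as a mean per cell. That of mitochondrial members (-0.07) was 0.065 without the limit, 0.0311 with TMM and 0.0336 with median-of-ratios scaling, all reversed, and -0.01997 without hormone genes and -0.118 as a mean per cell. Members 1.3-fold higher went from 1 to 2 (Atp5g1 and Uqcrq) without hormone genes, with TMM and with median-of-ratios scaling, and members lower from 0 to 1 as a mean per cell (mt-Nd4l) and at 10 UMIs (Ndufa4l2). DESeq2's Wald test called 39 members in place of 61 in beta against alpha cells, 27 in place of 48 in beta against delta cells and 21 in place of 50 in alpha against delta cells. Plain UMI totals called 79 in beta against delta cells. Without the replicate block, 46, 37, 41 and 65 members were called in place of 61, 48, 50 and 68, the last for beta against endothelial cells. For cells with Nupr1, the mitochondrial difference was 0.333 (virgin) and 0.243 (multipara) without hormone genes and 0.178 (multipara) without the limit, and the nuclear one 0.0378 (virgin) and, reversed, -0.00487 (multipara) without hormone genes and 0.0619 (multipara) without the limit. Plain UMI totals and both Nupr1 alternatives were chosen after seeing the data. Leaving out a library leaves no residual degrees of freedom, and within single libraries 82 of 89, 80 of 89, 77 of 88 and 83 of 88 members had the same sign in both. The same share over all genes is not given here, so these counts do not set the members apart from genes in general. No paired analysis was possible between virgin and multipara because each group held 1 library. Rare isoforms are limited by depth.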
